A study of Arabidopsis thaliana with 6 samples.

Results

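The genomic regions whose H3K27me3 signal differed between dexamethasone-treated WUS-GR and Col-0 seedlings of Arabidopsis thaliana were examined. H3K27me3 is histone H3 trimethylated at lysine 27. The members were all 500 bp windows in the 2 deposited H3K27me3 lists, 12731 windows with more signal in Col-0, called lost, and 6023 windows with more signal in WUS-GR, called gained. They made up 18754 of the 86611 windows of the series, which also holds lists for H3K9/K14 acetylation and for the WUS protein itself. Touching windows were merged into 6917 lost and 4379 gained regions, 11296 of the 40445 regions of the series. A stricter set, which leaves out every gained and lost region closer than 73 bp to one of the opposite direction, held 2570 lost and 671 gained regions. The study's methods describe the same removal. Results are given for all merged regions and for the stricter set, called "after removal".

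WUS is the homeodomain protein that maintains stem cells in the shoot apex. The WUS-GR seedlings carried pUBI10::mCherry-GR-linker-WUS, a fusion driven by the ubiquitin promoter, which is active in nearly all cells and not only where WUS is normally made. The glucocorticoid receptor part (GR) holds the fusion outside the nucleus until dexamethasone is given. The controls were Col-0 wild-type seedlings without the transgene, and both genotypes were 5 days old after germination and had received 25 µM dexamethasone for 2 h. Whole seedlings were used, so a region may change in any of their cell types, and the presence of the transgene and its induction cannot be told apart, since untreated WUS-GR seedlings were not analysed here. The study asked with this comparison whether the chromatin marks of the genome change when WUS enters the nucleus. The comparison gave 1 list for each direction, DNA from several immunoprecipitations had been pooled, and the lists hold positions without read counts. There was therefore no replicate check, the sequencing depth is unknown, no p-value is given, and the Wilson 95% intervals in parentheses cover counting error only.

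H3K27me3 is written by Polycomb repressive complex 2 and marks genes that are kept silent in most cells of a tissue, usually over the whole transcribed part of the gene. In plants these are above all developmental regulators, such as floral homeotic genes, meristem genes and the regulators of seed maturation, and genes of specialised metabolism. In Arabidopsis the complex is brought to some of its targets by proteins that recognise short DNA words, among them the GA repeat GAGAGA, the telobox AAACCCTA and the RY word TGCATG, the last of which is read by B3-domain proteins.

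Sequences from 8 changed windows are shown because they lie in genes described below and hold at least 1 of these words. Each is a stretch of 180 bases on the sense strand of the gene, 5′ to 3′, read from the RefSeq sequence of TAIR10.1, with the 3 words, or their reverse complements TCTCTC, TAGGGTTT and CATGCA, in capitals. TSS stands for the annotated transcription start site.
WUS, gained, chr2:7810812-7810991 (- strand, upstream of the TSS): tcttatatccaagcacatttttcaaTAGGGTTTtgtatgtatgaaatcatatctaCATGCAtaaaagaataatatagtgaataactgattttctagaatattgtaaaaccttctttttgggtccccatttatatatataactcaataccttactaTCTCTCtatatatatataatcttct
WUS, lost, chr2:7810088-7810267 (- strand, coding exon and intron): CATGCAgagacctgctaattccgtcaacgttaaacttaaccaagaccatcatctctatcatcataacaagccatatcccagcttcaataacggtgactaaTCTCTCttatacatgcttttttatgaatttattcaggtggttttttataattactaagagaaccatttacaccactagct
FLC, gained, chr5:3175576-3175755 (- strand, intron and coding exon): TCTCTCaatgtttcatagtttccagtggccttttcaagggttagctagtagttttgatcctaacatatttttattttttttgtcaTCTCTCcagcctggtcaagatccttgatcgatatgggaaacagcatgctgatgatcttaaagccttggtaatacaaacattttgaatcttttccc
SEP1, gained, chr5:5153034-5153213 (- strand, intron): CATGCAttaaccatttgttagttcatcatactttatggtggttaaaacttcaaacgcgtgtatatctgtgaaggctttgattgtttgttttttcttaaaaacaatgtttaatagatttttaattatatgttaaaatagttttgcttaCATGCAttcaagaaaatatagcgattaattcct
AG, lost, chr4:10386214-10386393 (+ strand, intron): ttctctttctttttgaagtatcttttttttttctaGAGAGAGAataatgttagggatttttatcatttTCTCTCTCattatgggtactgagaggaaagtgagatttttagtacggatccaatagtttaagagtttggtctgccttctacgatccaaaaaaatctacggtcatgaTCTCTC
SHP1, lost, chr3:21739526-21739705 (+ strand, intron): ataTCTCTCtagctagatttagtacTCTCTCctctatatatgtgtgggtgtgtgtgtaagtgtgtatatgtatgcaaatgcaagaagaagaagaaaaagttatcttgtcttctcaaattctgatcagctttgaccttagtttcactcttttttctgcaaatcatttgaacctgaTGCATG
FUS3, lost, chr3:9856213-9856392 (- strand, upstream of the TSS): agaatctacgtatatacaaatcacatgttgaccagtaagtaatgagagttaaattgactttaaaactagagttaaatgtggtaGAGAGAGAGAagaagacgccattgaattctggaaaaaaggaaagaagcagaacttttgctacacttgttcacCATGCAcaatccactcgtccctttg
ABI3, lost, chr3:8998501-8998680 (+ strand, coding exon): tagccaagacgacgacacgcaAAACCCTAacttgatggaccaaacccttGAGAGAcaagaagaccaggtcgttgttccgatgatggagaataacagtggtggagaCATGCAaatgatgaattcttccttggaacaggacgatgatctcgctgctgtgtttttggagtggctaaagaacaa
The gained and the lost window of WUS come from the same gene and both hold a GA repeat and an RY word, and the telobox was found only in the gained stretch. A word is a match of letters and not a measured site, and the stretches were picked for holding the words.

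Gained and lost windows often alternated along the same stretch of chromosome. Joined without regard to direction, the windows formed 5737 contiguous stretches, of which 2570 were lost throughout, 671 were gained throughout and 2496 held both directions. The mixed stretches had a median length of 2000 bp, against 500 bp for stretches of 1 direction. A mixed stretch by definition holds more than 1 window, so part of this difference is built in. They covered 6.63 Mb, or 70.7% of all changed sequence, and 38.7% of their length was gained. No window stood in both lists.

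**Figure D1:**
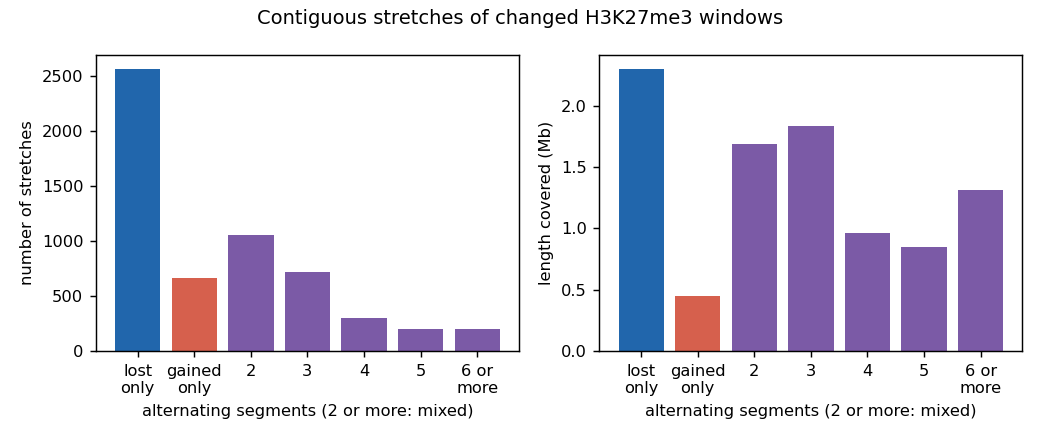
Contiguous stretches of changed H3K27me3 windows, by direction and, for mixed stretches, by the number of alternating lost and gained segments; bars give the number of stretches on the left and the sequence covered in Mb on the right. Stretches of lost windows only were the most numerous (2570), and mixed stretches of 2 or more segments together covered the most sequence (6.63 Mb).

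The order of directions in a mixed stretch was uneven. Lost windows outnumbered gained ones, 12731 to 6023, and the order that this alone would give was not tested. Of 725 stretches with 3 segments, 591 were lost, gained and lost again, and 134 had the opposite order. Among the 1435 stretches with 3 or more segments, 824 began and ended with a lost segment and 185 with a gained segment. In the others the ends differed, 205 running from lost to gained and 221 from gained to lost along the chromosome, which is a near-even split. Stretches of 2 segments were divided in the same way, 535 with the lost and 526 with the gained segment first.

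The longest mixed stretch ran for 17000 bp on chromosome 4 from 7399501 to 7416500, with 12000 bp lost and 5000 bp gained in 15 segments. It held a tandem group of lipid-transfer protein genes, with AZI1 and EARLI1, the former known from defence priming by azelaic acid. The next, of 16500 bp on chromosome 1, held TCP12 (BRANCHED2), a regulator of axillary bud growth, and the bHLH gene AT1G68810. A stretch of 11500 bp with 9 segments, 5000 bp lost and 6500 bp gained, spanned GA20OX1, an enzyme of gibberellin synthesis. The largest number of segments, 16, was found at 4 cystatin-like genes on chromosome 1 (AT1G63190 to AT1G63206).

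Every removed region touched a region of the opposite direction, since the windows lie on a 500 bp grid. The removal took 4347 lost regions (62.8%) and 3708 gained regions (84.7%). The nearest regions that stayed were 189 lost and 132 gained regions at 500 bp from an opposite one. Lost regions made up 61.2% (60.3 to 62.1) of all merged regions and 79.3% (77.9 to 80.7) after removal.

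Lost regions covered 6.37 Mb (5.34% of the nuclear genome) and gained regions 3.01 Mb (2.53%). After removal these values were 2.30 Mb (1.93%) and 0.447 Mb (0.375%). Both directions had a median region length of 500 bp, the size of 1 window, but 3813 of 6917 lost and 3196 of 4379 gained regions were a lone window, and 9.85% of lost and 2.06% of gained regions reached 2000 bp. Long regions were more frequent among losses.

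The balance of gain and loss varied between chromosomes. Over all merged regions, gained regions made up 42.6% (41.0 to 44.3) on chromosome 1, 36.4% (34.2 to 38.6) on chromosome 2 and 30.7% (28.6 to 32.9) on chromosome 3. The shares were 42.8% (40.6 to 45.1) on chromosome 4 and 38.1% (36.2 to 40.1) on chromosome 5. Chromosome 3 thus had the lowest share, and chromosomes 1 and 4 the highest, with overlapping intervals. The same held after removal, with 12.4% (10.3 to 14.9) on chromosome 3, 28.3% (25.3 to 31.6) on chromosome 1 and 26.8% (22.8 to 31.2) on chromosome 4, and with windows in place of regions, where chromosome 3 had 24.3% (22.8 to 25.8) and chromosome 1 had 36.6% (35.3 to 37.9). What lies behind the difference was not tested.

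Changed regions were placed in genes by their midpoints. Of all merged regions, 59.8% (58.6 to 60.9) of lost and 59.7% (58.3 to 61.2) of gained ones had the midpoint in a gene body, a little less than the 64.2% of all 500 bp windows of the genome. Upstream positions, up to 2500 bp before the TSS, held 31.1% of lost and 30.8% of gained regions, against 26.8% of genomic windows. The regions of changed H3K9/K14ac between the same genotypes were far more concentrated in gene bodies, with 87.8% of lost and 94.3% of gained regions after the same removal, and only 9.35% and 4.76% lay upstream.

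After removal, 62.2% (60.3 to 64.1) of lost and 68.9% (65.2 to 72.2) of gained H3K27me3 regions lay in gene bodies. The gained regions then were more often in coding sequence, 43.7% (293 of 671), than the lost ones, 34.7% (892 of 2570), and both exceeded the 27.9% of genomic windows. Gene-poor sequence, defined as 500 kb bins with fewer than 50% of the median number of genes, which lie mostly around centromeres, took up 15.9% of the genomic windows. It held 4.24% (3.53 to 5.09) of lost and 8.20% (6.35 to 10.5) of gained regions after removal, so the changes kept largely to the gene-rich arms.

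Around the TSS the 2 directions had similar profiles at different heights. Lost windows covered 6.57% of protein-coding genes at the TSS and at most 7.59%, at 400 bp into the gene, and declined to 4.83% at 3000 bp. Gained windows covered 2.74% at the TSS and at most 3.51%, at 500 bp, and 2.15% at 3000 bp. After removal both maxima stood at 500 bp, at 3.08% for lost and 0.652% for gained windows. Along gene bodies of at least 2000 bp divided into 10 equal parts, lost coverage was highest in part 3 (5.00%) and lowest in part 10 (3.32%), and gained coverage was highest in part 5 (2.59%) and lowest in part 10 (1.54%).

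**Figure D2:**
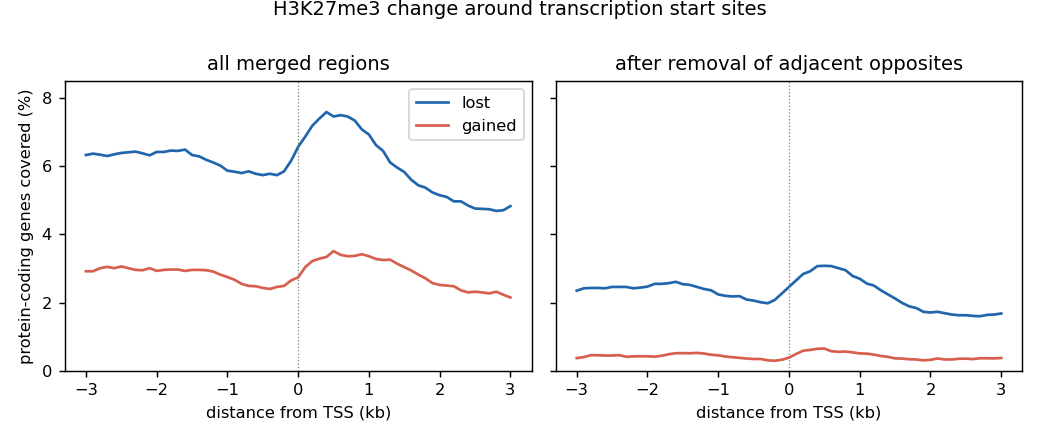
Share of the 27444 protein-coding genes covered by lost and gained H3K27me3 windows (percent, vertical axis) against the distance from the TSS in kb in the direction of transcription, for all merged regions and after removal. Both directions were highest at 400 to 500 bp inside the gene, and lost windows lay above gained windows at every distance plotted.

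A region counted for the gene at its midpoint, with gene bodies taking precedence over upstream and downstream positions. Lost regions fell to 5006 genes (13.2% of all 37899 annotated genes) and gained regions to 3303 (8.72%), and after removal to 2278 (6.01%) and 615 (1.62%). Among the 27444 protein-coding genes, 15.9% had a lost region, 10.6% a gained region, 7.29% a lost region after removal and 1.92% a gained region after removal. These shares are the background for the gene lists that follow. Protein-coding genes took 87.3% of the genes with a lost region and 87.7% of those with a gained region, although they were 72.4% of all annotated genes.

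A change in both directions inside the same gene was frequent. Lost windows entered the body of 4242 protein-coding genes (15.5%) and gained windows that of 2630 (9.58%), and 2024 genes, 7.38% of all, had both. After removal these numbers were 1871 (6.82%) and 480 (1.75%). Thus 77.0% (75.3 to 78.5) of genes with a gained window also had a lost one, and 47.7% (46.2 to 49.2) of genes with a lost window also had a gained one. The remaining genes were 2218 with losses only and 606 with gains only.

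A set of 111 genes from 12 lists, mostly of families that hold known Polycomb targets, was followed in detail. They are called target genes below, although Polycomb binding of each member was not tested here. Of these, 89 or 80.2% (71.8 to 86.5) were assigned a lost region and 71 or 64.0% (54.7 to 72.3) a gained region, against 15.9% and 10.6% of all protein-coding genes. After removal 35 genes (31.5%, 23.6 to 40.7) had a lost and 7 (6.31%, 3.09 to 12.4) a gained region, against 7.29% and 1.92%. The number with either change went from 94 to 40, so most of these targets counted only when touching regions of opposite direction were kept. Inside the gene body, 63 of the 111 had both directions, 23 losses only, 6 gains only and 19 neither. The lost length exceeded the gained length in 70 of them and the reverse was true of 21. Per gene, the median was 1000 bp lost and 500 bp gained. The lists were chosen with results of these lists of windows known, and their shares describe these genes only. Gene lengths differed too, with a median of 3962 bp in the MADS-box list and 989 bp in the seed storage list. The median of all protein-coding genes was 2078 bp, and the part of gene length in these shares was not tested.

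**Figure D3:**
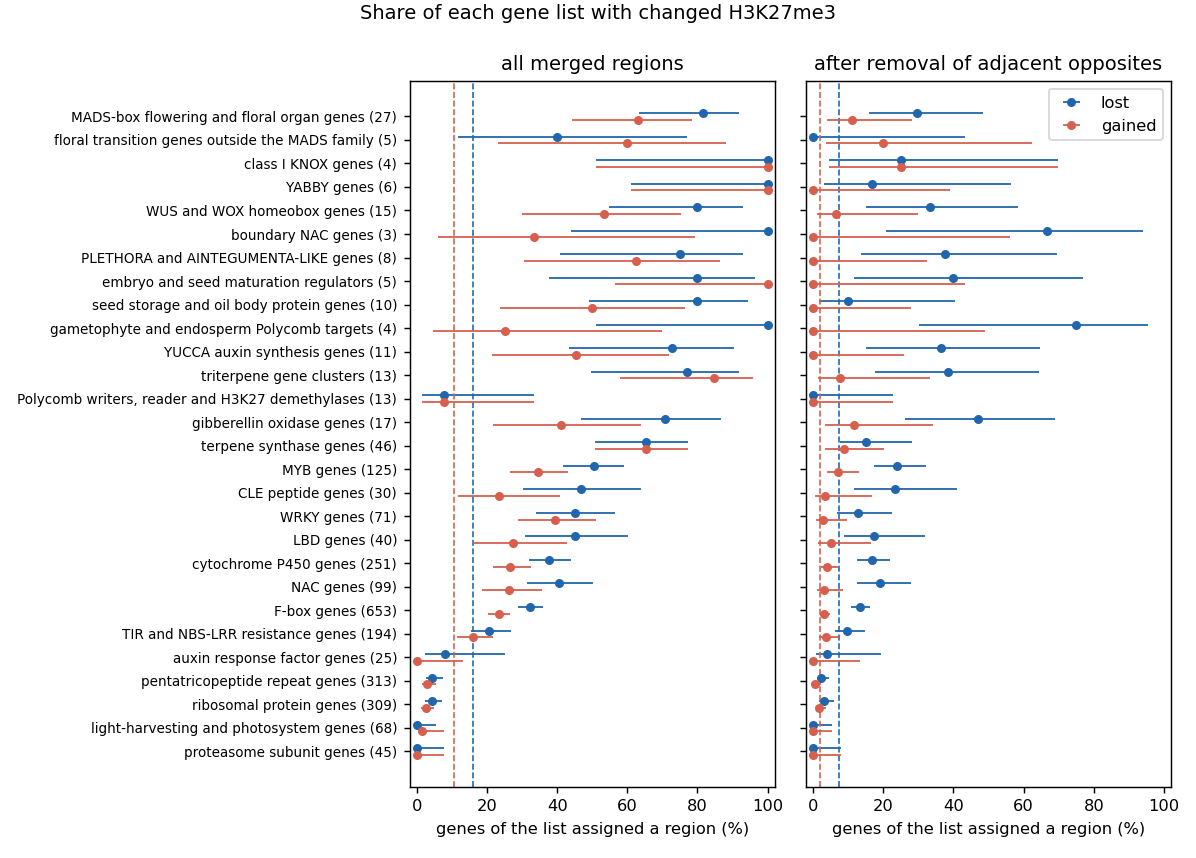
Share of the genes of each list (number of genes in parentheses) assigned a lost or a gained H3K27me3 region, in percent, for all merged regions and after removal; bars are Wilson 95% intervals and dashed lines give the shares of all protein-coding genes, 15.9% and 10.6% on the left and 7.29% and 1.92% on the right. The developmental lists lie to the right of the dashed lines on the left panel, and the ribosomal, photosystem, pentatricopeptide repeat and proteasome lists lie to the left of them.

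Lengths lost or gained at a named gene are those inside the gene body unless a position is given. The MADS-box list covers the transcription factors that specify floral organs and time flowering. Of its 27 genes, 22 had a lost and 17 a gained region, and 8 and 3 after removal. AGAMOUS (AG, AT4G18960), which specifies stamens and carpels, was mostly in the lost state. Its body of 5684 bp on chromosome 4 was covered by lost windows over 4645 bp (81.7%) and by gained windows over 539 bp (9.48%). A lost region of 3000 bp spanned the TSS, a second of 2000 bp followed in the long intron, from which the stretch above was taken, and gained windows appeared only near the 3′ end, from 4645 bp on. The first of these regions was left after removal, so 2145 bp of the body stayed lost.

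FLC (AT5G10140), the repressor of flowering that is silenced by Polycomb after cold, had the opposite balance. Of its 6067 bp on chromosome 5, gained windows covered 3948 bp (65.1%) and lost windows 500 bp (8.24%). The lost window lay 948 to 1447 bp after the TSS, in the 5′ part of the gene, and gained windows lay before it, from just upstream of the TSS, and after it to 5447 bp. After removal 2448 bp were gained and none were lost. Of its close relatives, MAF4 had 500 bp gained and none lost, MAF5 had 997 bp gained and 500 bp lost, and no changed window was found in the bodies of MAF1, AGL31 (MAF2) and MAF3.

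Among the other floral organ genes, SEP3, whose protein joins most floral MADS complexes, had its whole body of 2588 bp in a lost region of 4000 bp. A gained window touched this region upstream of the TSS, so SEP3 had no lost region after removal. SHP1, which acts in fruit valve margins and ovules, had 1500 bp lost and no gained window, and this region stayed after removal. Its close paralogue SHP2 had 2000 bp lost and 1887 bp gained, the lost part in the middle and the gained parts at both ends. AP1, which specifies sepals, petals and the floral meristem, had 2000 bp lost and 1000 bp gained, and SEP1, a relative of SEP3, had 753 bp lost and 1000 bp gained, the gained part lying between lost regions. STK, an ovule identity gene, had 3126 bp lost and 1781 bp gained, which together make up its whole body. The B-class gene PI, needed for petals and stamens, had 1000 bp gained and none lost in the body, with a lost window of 500 bp upstream of the TSS, and its partner AP3 had 500 bp lost and none gained.

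Of the regulators of flowering outside this family, FT, the mobile flowering signal, had 1000 bp lost and 999 bp gained of its body in 3 alternating regions. Its paralogue TSF had 500 bp gained at 10 to 509 bp after the TSS, which stayed after removal. LFY, the switch to floral identity, was covered throughout, with 1489 bp lost and 1253 bp gained. No changed window was found in the bodies of TFL1, CO, SVP and SOC1 (AGL20), but SOC1 was assigned a lost window upstream of the TSS that stayed after removal.

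**Figure D4:**
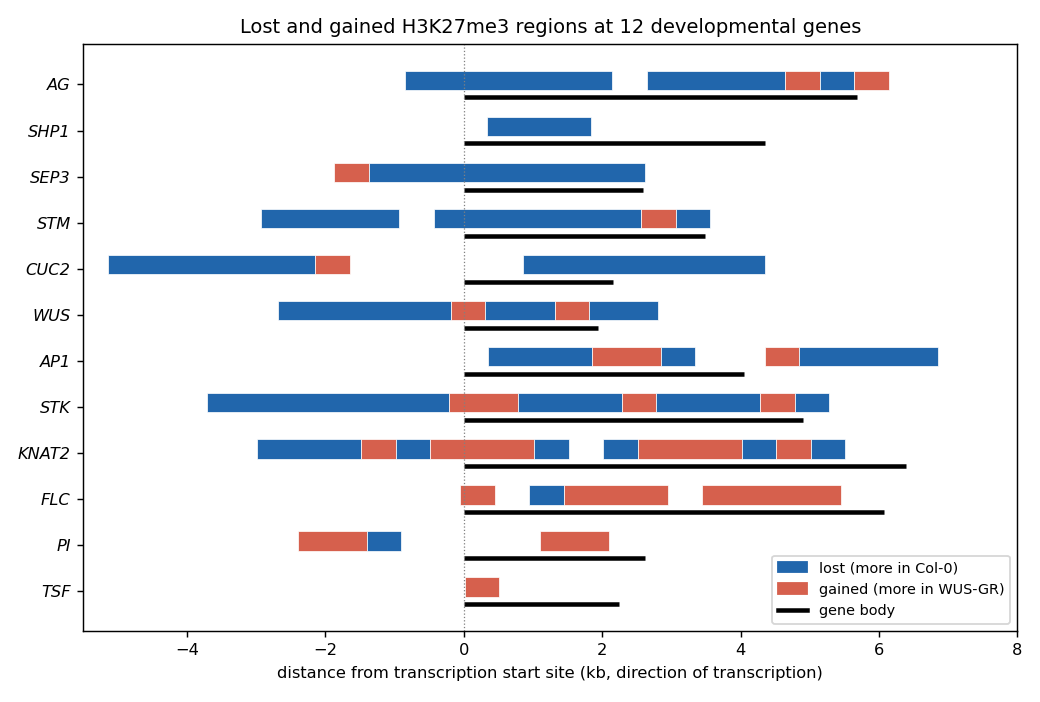
Lost and gained H3K27me3 regions at 12 developmental genes, with the distance from the TSS in kb in the direction of transcription on the horizontal axis and 1 gene in each row; black lines mark gene bodies. The changed windows inside the gene body are mostly or only lost at AG, SHP1, SEP3, STM and CUC2, alternate at WUS, AP1, STK and KNAT2, and are mostly or only gained at FLC, PI and TSF.

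Most genes of the meristem and organ polarity lists were assigned a changed region, though the share of the body covered varied. All 4 class I KNOX genes, which keep cells of the shoot meristem undifferentiated, had both a lost and a gained region. STM had 2982 bp lost and 500 bp gained, so its whole body of 3482 bp was in changed windows. KNAT1 leaned the other way, with 1000 bp lost and 1961 bp gained, as did KNAT2, with 2000 bp and 3015 bp. KNAT6 was the only member left after removal, with a lost window of 500 bp close to the TSS and a gained region of 1000 bp further into the gene.

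All 6 YABBY genes, which mark the lower side of leaves and floral organs, had both directions. The lost length was 2028 bp at AFO (YAB1), 2532 bp at YAB3 and 2510 bp at YAB5, and each of these had 500 bp gained. INO, which acts in the outer integument of the ovule, was the exception with 704 bp lost and 1000 bp gained. After removal only YAB2 stayed, with 1500 bp lost.

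WUS (AT2G17950) itself was changed from end to end. Of its 1941 bp on chromosome 2, 1130 bp (58.2%) were lost and 811 bp (41.8%) gained. A gained window spanned the TSS, from just upstream to 310 bp downstream, between a lost region of 2500 bp upstream and one of 1000 bp in the gene, and a second gained window lay at 1311 to 1810 bp. The WUS coding sequence is also part of the transgene, so reads from the transgene and from the native gene cannot be told apart in coding exons, which the window at the TSS reaches only in part. None of the WUS regions stayed after removal.

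Of the 15 genes of the WUS and WOX family, 12 had a lost and 8 a gained region, and 5 and 1 after removal. WOX5, which acts in the quiescent centre of the root as WUS does in the shoot, had 721 bp of 1161 bp lost and none gained. WOX11 had 2064 bp lost and 1000 bp gained, which cover the whole gene. WOX2, PRS (WOX3), WOX10, WOX13 and WOX14 had no changed window in their bodies. Upstream of the TSS, however, WOX2 and PRS were assigned lost regions that stayed after removal.

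Genes that set organ boundaries were on the lost side. CUC1 had 1000 bp and CUC2 1297 bp of the body lost and none gained, and both stayed after removal. At CUC2 the lost region of 3500 bp reached from 854 bp inside the gene to 4353 bp, beyond its end. CUC3 had 545 bp lost and 500 bp gained, so the 3 paralogues were not alike. Among the 8 PLETHORA and AINTEGUMENTA-LIKE genes, which act in root stem cells and in organ growth, 6 had a lost and 5 a gained region, and 3 and none (0) after removal. PLT2 had 2325 bp lost and 500 bp gained, BBM 1108 bp lost and none gained, and the root gene PLT1 1500 bp lost and 557 bp gained.

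The regulators of embryo and seed maturation are silenced at germination. Of 5, 4 had a lost and all 5 a gained region, and 2 and none (0) after removal. LEC2 had 2000 bp lost and 876 bp gained, FUS3 1712 bp lost and 500 bp gained, and ABI3 2685 bp lost and 500 bp gained. LEC1 was the exception inside the gene body, with 149 bp lost and 1000 bp gained. A lost region of 4500 bp, however, spanned its TSS, lying mostly upstream and ending 148 bp inside the gene, where it touched the gained region. By its midpoint this lost region was not assigned to LEC1. The FUS3 stretch printed above lies in a lost region of 2000 bp that spans the TSS, between gained windows on both sides, and holds a GA repeat of 10 bases and an RY word.

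Among the seed storage and oil body genes, which these regulators switch on, 8 of 10 had a lost and 5 a gained region. After removal 1 (10.0%, 1.79 to 40.4) had a lost and none (0) a gained region, near the 7.29% and 1.92% of all protein-coding genes. The 2S albumin genes SESA1, SESA2, SESA3 and SESA4 lie side by side and differed from gene to gene. SESA3 was lost over all of its 768 bp and SESA1 over 500 bp of 703 bp, while SESA2 was gained over 575 bp of 735 bp and SESA4 over 405 bp of 688 bp. The cruciferin gene CRU3 had 1741 bp of 2241 bp lost and none gained, whereas its relative CRA1 had 336 bp lost and 1500 bp gained.

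The 4 target genes of the gametophyte and endosperm list were all assigned lost regions, and 1 of them a gained region. MEA, a Polycomb subunit gene expressed from the maternal allele, had 2000 bp lost and 500 bp gained, and 1500 bp stayed lost after removal. PHE1, a MADS-box gene expressed from the paternal allele, was lost over its whole 1080 bp. FWA and FIS2 had lost windows of 641 bp and 500 bp and none gained.

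Since the study deals with auxin, the auxin genes are given together. The YUCCA enzymes make the last step of auxin synthesis, and 8 of 11 had a lost and 5 a gained region, 4 and none (0) after removal. YUC6 had 1768 bp, YUC9 1500 bp and YUC5 875 bp lost, all without a gained window in the body and all left after removal, and YUC4 had 1894 bp lost and 500 bp gained. YUC3, YUC7, YUC8 and YUC11 had no changed window in the body, but YUC8 was assigned lost and gained regions outside it, and a lost region stayed after removal.

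Of 32 Aux/IAA genes, whose proteins repress the auxin response factors, 8 (25.0%) had a lost and 4 (12.5%, 4.97 to 28.1) a gained region. Both intervals hold the shares of all protein-coding genes, 15.9% and 10.6%. After removal 6 (18.8%, 8.89 to 35.3) had a lost region, against 7.29%, and none (0) a gained region, against 1.92%. In the body, AXR3 had 1000 bp, IAA7 895 bp and IAA19 500 bp lost and no gained window, and IAA19 was assigned a gained region outside its body. Of 25 auxin response factor genes, 2 (8.00%, 2.22 to 25.0) had a lost and none (0) a gained region, and this interval overlaps that of the Aux/IAA genes, 13.3 to 42.1. The early auxin response genes of the SAUR family had lost regions at 15 of 80 (18.8%) and gained regions at 8 (10.0%), close to the 15.9% and 10.6% of all protein-coding genes.

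Gibberellin genes were more often changed. Of 17 genes for gibberellin oxidases, 12 (70.6%) had a lost and 7 (41.2%) a gained region, and 8 and 2 after removal. GA20OX3, which makes active gibberellin precursors, was lost over its whole 1787 bp and GA20OX4 over 1428 bp of 1568 bp, both without gain and left after removal. GA2OX2, which inactivates gibberellin, had 1000 bp lost and none gained. GA2OX7 was covered throughout, with 1366 bp lost and 1000 bp gained.

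Triterpene synthesis genes lie in clusters that carry H3K27me3 in shoots. Of the 13 genes listed, 10 had a lost and 11 a gained region, and 5 and 1 after removal. The marneral synthase gene MRN1 had 2793 bp lost and 1500 bp gained, and the thalianol synthase gene THAS1 2164 bp lost and 500 bp gained. CYP705A1 was gained over 1681 bp of 1978 bp with no loss in the body, and its neighbour PEN1, the arabidiol synthase gene, had 2500 bp lost and 500 bp gained. These last genes belong to the longest run of neighbouring changed genes, 17 protein-coding genes in a row on chromosome 4 from 8716504 to 8816815 (AT4G15270 to AT4G15410), of which 16 had lost and 13 gained windows in the body.

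In all, 433 runs of 3 or more neighbouring protein-coding genes were changed, and 103 of these had 5 or more genes. Changed windows lay in the body of 4848 of the 27444 protein-coding genes, and a mixed stretch can cross several neighbouring genes. The number of runs that this alone would give was not tested, so the counts have no background. The second longest run, with 13 genes on chromosome 4 from 11838960 to 11860426, contained lipid-transfer protein genes, with losses in 11 and gains in 10. A run of 10 genes on chromosome 3 from 7720597 to 7753348 contained cysteine-rich repeat secretory protein genes, with losses in all 10 and gains in 4. A run of 9 genes on chromosome 4 joined YUC2 to the terpene synthase genes TPS12 and TPS13 and the cytochrome P450 genes CYP71A19 and CYP71A20.

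Among larger families, terpene synthase genes were changed often, with lost and gained regions at 30 each of 46 (65.2%). MYB transcription factor genes followed with 63 lost (50.4%) and 43 gained (34.4%) of 125, and WRKY genes with 32 (45.1%) and 28 (39.4%) of 71. CLE genes, which encode signal peptides of meristems, had lost regions at 14 (46.7%) and gained regions at 7 (23.3%) of 30. CLE41, a peptide that acts in vascular stem cells, was lost over all of its 1171 bp, but no lost window in its body stayed after removal. CLE10 was lost over all of its 763 bp, and this loss stayed after removal. NAC genes (40 and 26 of 99), cytochrome P450 genes (95 and 67 of 251) and F-box genes (211 and 152 of 653) also lay above the share of all protein-coding genes in both directions. B3 genes (12 and 8 of 99), AP2/ERF genes (14 and 7 of 76) and genes for defensin-like and cysteine-rich peptides (43 and 28 of 303) were near or below it.

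After removal the order of the families was another. MYB genes had a lost region in 24.0% (17.4 to 32.2) and CLE genes in 23.3% (11.8 to 40.9), and terpene synthase genes in 15.2% (7.57 to 28.2), against 7.29% of all protein-coding genes. Gained regions were at 7.20% (3.83 to 13.1) of MYB genes and 8.70% (3.43 to 20.3) of terpene synthase genes, against 1.92%. For NAC genes, with 3.03% (1.04 to 8.53), and WRKY genes, with 2.82% (0.776 to 9.70), the interval of the gained share held that value.

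Genes used by most cells had few changed regions when all merged regions were counted. Of 309 ribosomal protein genes, plastid ones included, 13 (4.21%) had a lost and 8 (2.59%) a gained region. After removal 10 (3.24%, 1.77 to 5.85) had a lost region, against 7.29% of all protein-coding genes, and 5 (1.62%, 0.693 to 3.73) a gained region, close to the 1.92%. Over all merged regions the counts were 14 (4.47%) and 9 (2.88%) of 313 pentatricopeptide repeat genes, which act on organelle RNA. None (0) of 45 proteasome genes had either, and of 68 light-harvesting and photosystem genes none (0) had a lost and 1 a gained region. Of the 13 genes for Polycomb writers, the reader LHP1 (TFL2) and H3K27 demethylases, only VIN3 had changed windows in the body. VIN3, which is induced by cold and recruits the writer to FLC, had 500 bp lost and 1500 bp gained. Upstream of its TSS, FIE had a lost region that touched a gained window, and neither was assigned to it. Lost regions upstream of TFL2 and downstream of AT3G45880 were not assigned to these genes either. The bodies of CLF, SWN, EMF2, FIE, MSI1 and REF6 held no changed window.

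The longest lost regions after removal measured 5000 bp, at AT1G24480, a methyltransferase-like gene, and at AT3G44757. The region at AT1G24480 overlapped over 300 bp with windows of the RFP-trap list of Col-0, a pull-down in plants that lack the tagged protein. Regions of 4000 to 4500 bp followed at GPAT3, an acyltransferase of glycerolipid synthesis, at the nicotinamidase gene NIC3, at ADS4, a fatty acid desaturase gene, at DRNL, an AP2-type regulator of organ founder cells, and at ROXY1, a glutaredoxin gene of petal development. DRNL was lost over its whole body. Of 23067 protein-coding genes of at least 1000 bp, 354 were lost over 50% of the body or more and 56 over all of it. The corresponding numbers for gain were 28 and 2.

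The longest gained region after removal, of 5000 bp, lay in gene-poor sequence of chromosome 3 at the 18S ribosomal RNA gene AT3G41768. It overlapped, over 1000 bp, with windows of the same RFP-trap list of Col-0. The same held over 600 bp at AT1G40104, also in gene-poor sequence, and over 300 bp at AT2G01008 at the start of chromosome 2, both in gained regions of 3000 bp. Over all gained regions after removal, 2.98% (1.94 to 4.56) overlapped such windows, against 0.35% (0.184 to 0.664) of lost ones. The part of repeated sequence in these 3 gained regions was not tested.

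AT1G31040, a PLATZ transcription factor gene, was gained over 2564 bp in a region of 3000 bp. TT4, the chalcone synthase gene that opens flavonoid synthesis, was gained over 1500 bp of 1789 bp with no loss, and FLS6, a flavonol synthase relative, over 946 bp of 1268 bp. The genes with the largest gained share also included 3 F-box genes (AT5G42430, AT5G38810 and AT5G51000) and WRKY66.

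The overlap with the WUS-GR and acetylation lists was counted by gene, and for WUS-GR also by sequence. Of protein-coding genes with a lost region after removal, 24.1% (22.3 to 26.1) were also assigned a region bound by WUS-GR, and of those with a gained region 22.0% (18.7 to 25.7), against 23.0% of all protein-coding genes. By sequence, WUS-GR regions covered 1.96% of the lost and 1.48% of the gained sequence after removal, below the 3.56% of the genome. Over all merged regions these shares were 1.57% and 1.51%. Loss of acetylation was assigned to 12.6% (11.2 to 14.1) and 16.3% (13.4 to 19.7), against 15.9%, and gain of acetylation to 12.7% (11.3 to 14.2) and 11.2% (8.78 to 14.2), against 17.9%. Of the 111 target genes, 37 or 33.3% (25.3 to 42.5) were assigned a WUS-GR region, above the 23.0%, 16 (14.4%) a loss and 13 (11.7%) a gain of acetylation. The 9 with both WUS-GR binding and loss of acetylation were SEP3, AGL42, LFY, CO, KNAT2, YAB5, WOX1, AIL5 and YUC8. The share of all protein-coding genes with both was not counted, so this number has no background. Of these genes, CO and YUC8 also had a gain of acetylation, and CO was assigned no changed H3K27me3 region. WUS itself was assigned WUS-GR binding and a gain of acetylation. In its coding exons, however, reads from the transgene and from the native gene cannot be told apart.

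The DNA words of the printed stretches were counted on both strands in all 500 bp windows. The RY word TGCATG was in 25.8% (25.1 to 26.6) of lost and 25.6% (24.5 to 26.7) of gained windows, against 18.7% of all windows of the genome. After removal the shares were 26.9% (25.6 to 28.2) and 24.9% (22.2 to 27.9). In windows with changed H3K9/K14ac it was in 14.1% (13.5 to 14.7) of lost and 12.4% (11.8 to 12.9) of gained ones, below the genome.

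The GA repeat GAGAGA showed the reverse, with 36.1% (35.2 to 36.9) of lost and 35.5% (34.3 to 36.7) of gained H3K27me3 windows, near the 36.6% of the genome, and 45.4% and 48.4% of the acetylation windows. The telobox AAACCCTA was in 8.56% (8.09 to 9.06) of lost and 7.74% (7.09 to 8.44) of gained windows, against 6.24% of the genome. After removal it stayed at 8.55% (7.78 to 9.40) in lost windows and was in 4.47% (3.30 to 6.04) of gained windows, 40 of 894. The G-box CACGTG, bound by bHLH and bZIP proteins, was in 6.62% (6.20 to 7.07) of lost and 6.77% (6.17 to 7.44) of gained windows, against 5.34% of the genome, and TTAATGG, a word linked to WUS binding, was in 8.56% and 9.23%, against 8.32%. GC content differed between these sets, from 34.7% in lost and 35.1% in gained H3K27me3 windows to 39.9% in gained acetylation windows, with 36.0% in the genome, and its part in the word shares was not tested.

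**Figure D5:**
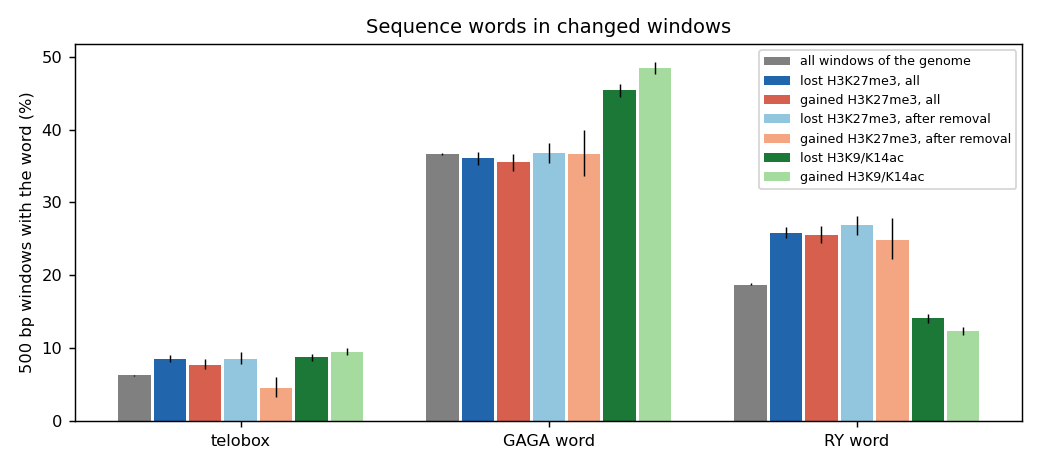
Share of 500 bp windows that hold the telobox, the GA repeat (GAGA word) or the RY word on either strand, in percent, in the whole genome, in lost and gained H3K27me3 windows with and without removal, and in lost and gained H3K9/K14ac windows without removal; error bars are Wilson 95% intervals. The RY word is above the genome (18.7%) in all 4 H3K27me3 sets and below it in both acetylation sets.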

How the data were processed

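Per the labels and the study's methods, the authors mapped ChIP-seq reads with BWA to TAIR10 and compared the genotypes with hiddenDomains in windows of 500 bp, keeping windows above a posterior threshold. The deposited files are BED lists of positions without a score, count or posterior. DNA of several immunoprecipitations was pooled before library preparation, the lists do not separate libraries, and depth is not given in the sources used here. The dexamethasone dose follows the labels, from which the methods differ.

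Here, touching windows were merged, and regions closer than 73 bp to an opposite region were removed in the stricter set. Both steps follow the study's methods, in which such opposite regions were left out of the data. Genes came from the RefSeq annotation of TAIR10.1 (37899 genes), whose chromosome lengths equal those of TAIR10. A region was assigned by its midpoint to a gene body, else to the nearest gene within 2500 bp upstream or 1000 bp downstream. Coordinates count from 1. Intervals are Wilson 95% (scipy 1.17.1, pandas 2.3.3, Python 3.11.15). Scripts were tested on simulated windows.

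Named genes are members of 13 lists, the genes at the 10 longest regions and the 10 with the largest share of the body changed in each direction after removal, ties by position. Genes of other families, mixed stretches and runs were named after their values were seen. Families were formed from annotated symbols and products. Members and lists were chosen with earlier results of these data known. In 2 cases a list name was not in the annotation, and the locus is used.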

Additional observations from a re-analysis of the deposited data

How the results depend on the processing

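The values after removal were compared with 45 alternatives for 12 results. Of these, 23 stayed within 1.5 times a count or inside the interval of a share, and 22 moved. The gained share in gene bodies also changed sides of the 64.2% of all 500 bp windows of the genome. It lay above that value after removal (68.9%) and below it without removal (59.7%). Without removal the numbers went from 2570 to 6917 lost and from 671 to 4379 gained regions, and from 2278 to 5006 and from 615 to 3303 genes. The share of losses went from 79.3% to 61.2%, the share in gene bodies from 62.2% to 59.8% (lost) and from 68.9% to 59.7% (gained), the gained share in gene-poor sequence from 8.20% to 4.27%, and the targets with a change from 40 to 94 of 111. Removing opposite regions closer than 1000 bp gave 81.5% losses. Regions of at least 1000 bp numbered 1107 lost and 158 gained (87.5% losses) at 1008 and 151 genes, with 59.5% and 72.8% in gene bodies and 24 targets. Counting every gene overlapped by at least 1 bp gave 4848 and 1339 genes, and by at least 250 bp 4474 and 1218. By construction, the overlap settings count a region for more genes, and the others change which regions enter. Of 270 alternatives for single lists, 194 moved. No paired analysis was possible because the comparison gave 1 list for each direction. Depth, and with it the margin of each window over the threshold, is unknown, so a lone window cannot be ranked against a broad region, and the cause of alternating directions was not tested.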
